A study of Rattus norvegicus with 20 samples.

Results

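Tubulin messenger RNAs were followed in the livers of male rats dosed with isodecyl diphenyl phosphate (IDDP), an organophosphate ester made up of phenyl groups and a branched alkyl chain. The set is 9 listed genes, 5 for beta-tubulins (Tubb2a, Tubb2b, Tubb4b, Tubb5 and Tubb6) and 4 for alpha-tubulins (Tuba1a, Tuba1b, Tuba1c and Tuba4a). A probe set, the group of short probes on the array that reads one transcript, was a member if the array's annotation gave it exactly 1 of these symbols. This rule gave 8 probe sets for 6 of the 9 genes, out of 31042 tested probe sets and 14217 named genes. Tubb2a, Tubb2b, Tubb4b and Tuba4a had 1 probe set each, and Tubb5 and Tubb6 had 2 each. Tuba1a, Tuba1b and Tuba1c were read only by a probe set they share, so no value is given for any of these 3 genes. The genes were chosen by the measured fall of Tubb2a at the highest dose, with the other tubulins of the array added to it, so every value at 1054.2 mg/kg is a description of the members and carries no test.

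The doses were 66 mg/kg per day (0.169 mmol/kg), 132 mg/kg (0.338 mmol/kg), 263.6 mg/kg (0.675 mmol/kg), 527.1 mg/kg (1.35 mmol/kg) and 1054.2 mg/kg (2.7 mmol/kg), and were set against the corn oil vehicle alone. Male Harlan Sprague Dawley rats were gavaged on 4 days and killed on day 5, with 3 rats at each dose and 5 vehicle rats. RNA of the left liver lobe, 100 ng per rat, was hybridised to 1 Affymetrix array per rat. Values are log2 intensities normalised with RMA, and a change of 1 on this scale is a doubling or halving. They compare a probe set between rats and do not rank the abundance of different genes.

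Array medians lay between 6.32 and 6.41, and Pearson's r between arrays, across probe sets, was 0.978 to 0.996. The control probe sets at the 3' end of a transcript exceeded those at its 5' end by group means of 1.64 to 2.31, a gap that widens as RNA degrades. It was widest in replicate 2 at 132 mg/kg (3.25), followed by replicate 2 at 263.6 mg/kg (2.47). Hepatocyte markers were bright, with Alb, the gene of serum albumin, at 15.34 in vehicle rats. Of 12 listed hepatocyte markers 11 were measured, and their mean per rat relative to the vehicle mean was -0.03 to 0.04 in vehicle rats, -0.17 to -0.06 at 66 mg/kg, -0.16 to -0.12 at 132 mg/kg, -0.10 to -0.01 at 263.6 mg/kg, -0.04 to 0.03 at 527.1 mg/kg and -0.01 to 0.02 at 1054.2 mg/kg. The rats at 66 and 132 mg/kg were below every vehicle rat in this mean. The largest change of that list at 527.1 mg/kg was in Pck1, an enzyme of gluconeogenesis, at 0.23 ± 0.21 (adjusted p = 0.712).

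Alpha- and beta-tubulin pair into dimers that add end to end into microtubules, the hollow filaments along which cells move vesicles and from which the mitotic spindle is built. In hepatocytes, microtubules carry lipoproteins, albumin and bile canalicular proteins to the cell surface. Animal cells keep the pool of dimers steady in part by autoregulation, in which an excess of free dimers speeds the decay of tubulin mRNAs while they are being translated.

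Of the 8 tubulin probe sets, that of Tubb2a was lower at 263.6 and 527.1 mg/kg, that of Tuba4a was lower at 527.1 mg/kg, and 1 of the 2 for Tubb5 was higher at 527.1 mg/kg. At that last dose 2 were lower and 1 higher past an adjusted p of 0.05, where 1.68% of all tested probe sets passed in either direction (0.483% lower and 1.19% higher). At 263.6 mg/kg 1 was lower, where 0.428% of all probe sets passed (0.155% lower). At 66 and 132 mg/kg 0 of the 8 passed in limma, where 0.00644% and 0.0677% of all probe sets did. At both doses 0 of the 8 also had an unadjusted p under 0.05, against 3.24% and 14.9% of all probe sets. The median change of the 8 was -0.11 at 527.1 mg/kg, against -0.01 over all probe sets.

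**Figure D1:**
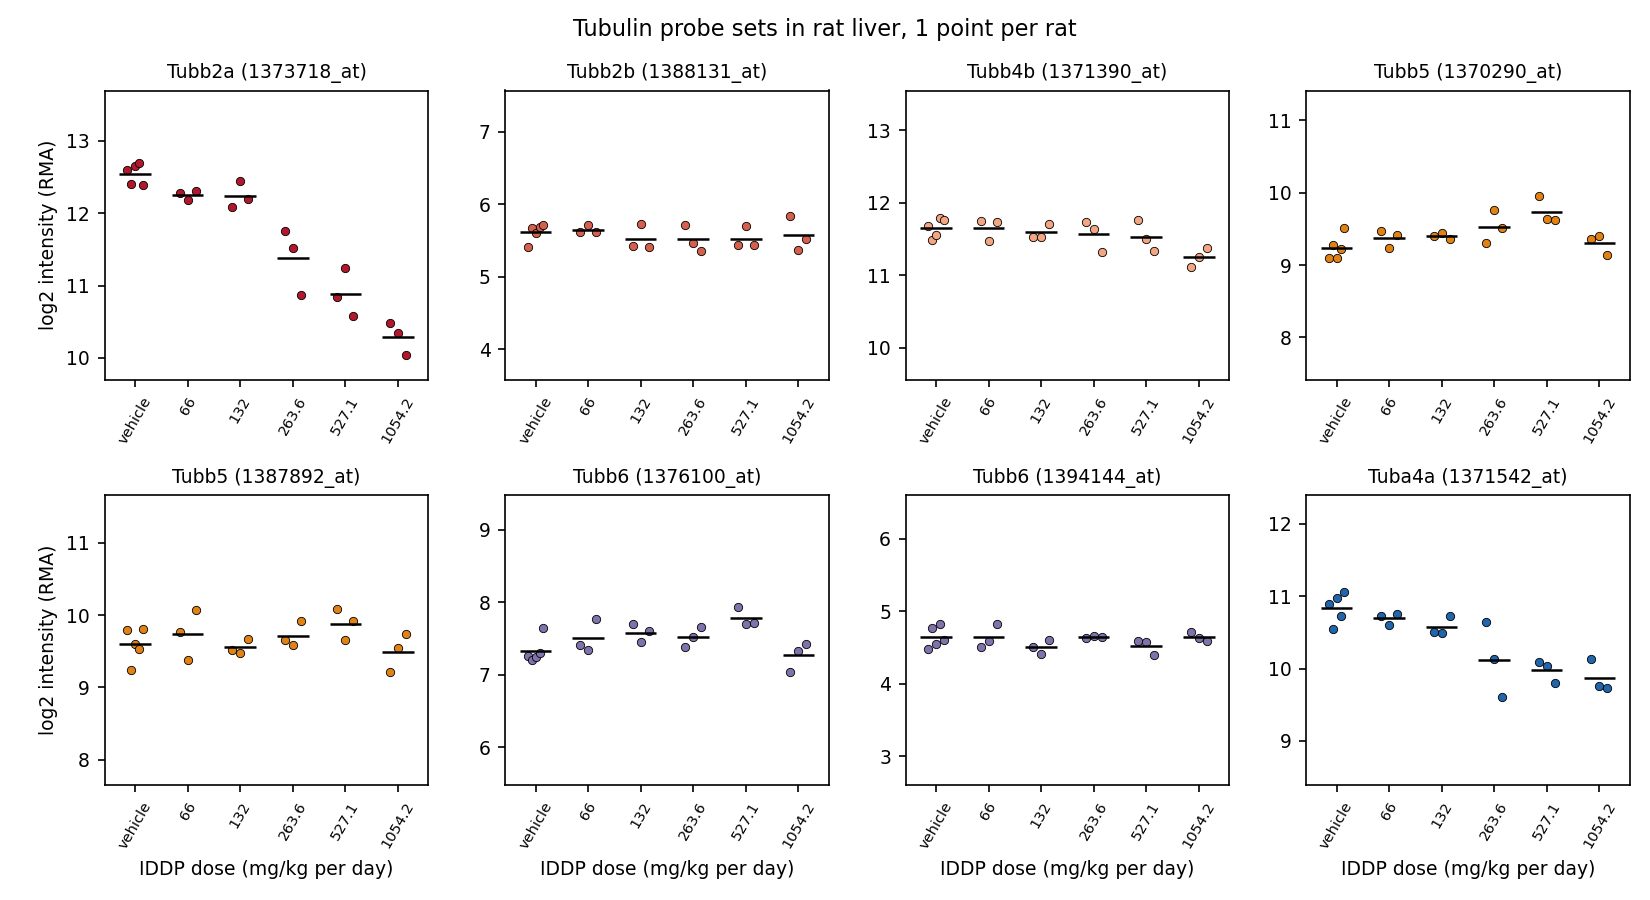
Log2 intensity (RMA) of each of the 8 tubulin probe sets by IDDP dose in mg/kg per day, with 1 point per rat and a bar at the group mean. All panels span 4 log2 units around their own mean. Tubb2a reads 10.04 to 10.48 at 1054.2 mg/kg, against 12.39 to 12.69 in vehicle rats, while Tubb2b stays between 5.36 and 5.83 in every group.

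Tubb2a encodes a class II beta-tubulin. The 250 bases before its annotated start, and those before the start of Tuba4a, are shown because these were the 2 genes with lower probe sets, and those of Tubb5 because its probe set moved the other way. The sequences are from RefSeq on rat assembly GRCr8. All 9 listed genes had an entry there. Capitals mark the cyclic AMP response element TGACGTCA, the E-box CACGTG, the TATA box core TATAA, the CCAAT box and the GC box GGGCGG, each searched on both strands with letters fixed after the sequences had been seen. The Tubb2a stretch is chr17:31001936-31002185 on the plus strand, that of Tuba4a is chr9:84162585-84162834 on the minus strand, and that of Tubb5 is chr20:2917327-2917576 on the plus strand.
Tubb2a: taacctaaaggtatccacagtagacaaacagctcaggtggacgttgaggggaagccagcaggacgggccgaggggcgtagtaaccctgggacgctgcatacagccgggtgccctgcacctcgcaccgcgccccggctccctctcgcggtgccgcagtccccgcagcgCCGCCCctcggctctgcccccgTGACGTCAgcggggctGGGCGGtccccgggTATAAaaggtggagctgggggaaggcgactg
Tuba4a: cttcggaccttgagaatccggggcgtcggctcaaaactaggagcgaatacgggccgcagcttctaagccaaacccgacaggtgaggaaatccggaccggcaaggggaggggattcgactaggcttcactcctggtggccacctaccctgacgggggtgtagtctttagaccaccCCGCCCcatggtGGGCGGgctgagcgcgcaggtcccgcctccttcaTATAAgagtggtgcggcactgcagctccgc
Tubb5: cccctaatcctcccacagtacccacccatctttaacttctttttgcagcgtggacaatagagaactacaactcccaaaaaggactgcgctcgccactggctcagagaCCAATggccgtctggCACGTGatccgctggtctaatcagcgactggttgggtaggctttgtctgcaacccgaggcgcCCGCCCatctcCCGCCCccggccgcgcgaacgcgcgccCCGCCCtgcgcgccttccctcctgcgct

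The Tubb2a stretch held TGACGTCA, starting at position -61 from the gene start, TATAA at -31 and GGGCGG at -45 and, on the minus strand, at -83. TGACGTCA was in 1.83% of 33469 annotated rat promoters (250 bases before to 50 after the start), TATAA in 26.2% and GGGCGG in 33.1%. Tuba4a held TATAA at -30 and GGGCGG at -64 and, on the minus strand, at -76. Tubb5 held CACGTG at -128, found in 6.42% of promoters, and CCAAT at -143, found in 37.5%, with GGGCGG on the minus strand at -66, -55 and -28. CCAAT was found before the start of the other 7 listed tubulins and not in the windows of Tubb2a and Tuba4a. Tuba1a, Tuba1b and Tuba1c, among those 7, have no value here. As the letters were fixed with the sequences seen, nothing is read from this split. These are matches of letters and not measured binding sites. Tubb2b, the closest relative of Tubb2a on the list, lies near it on chromosome 17, with Tubb2al1 between them.

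The Tubb2a values in the 5 vehicle rats were 12.60, 12.40, 12.65, 12.69 and 12.39. The 3 rats at each dose had 12.27, 12.18 and 12.31 at 66 mg/kg, 12.09, 12.44 and 12.20 at 132 mg/kg, and 11.75, 11.52 and 10.87 at 263.6 mg/kg. At 527.1 mg/kg they had 10.84, 11.25 and 10.58, and at 1054.2 mg/kg 10.48, 10.34 and 10.04. Every rat at 263.6 mg/kg or more was below every vehicle rat, and so was every rat at 66 mg/kg, while 1 rat at 132 mg/kg lay within the vehicle range. Such a separation downwards held for 4.18% of all probe sets at 263.6 mg/kg, 4.85% at 527.1 mg/kg and 5.81% at 1054.2 mg/kg. The 263.6 mg/kg rats were below all those at 132 mg/kg, as in 3.85% of all probe sets, and the 1054.2 mg/kg rats, whose values chose the gene, below all those at 527.1 mg/kg, as in 5.59%, whereas the ranges at 263.6 and 527.1 mg/kg overlapped, as did those at 66 and 132 mg/kg.

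Tubb2a averaged 11.38 ± 0.46 at 263.6 mg/kg and 12.55 ± 0.14 in vehicle rats (SD, n = 3 and 5), a change of -1.17 ± 0.17 (SE), or 2.25-fold lower (limma, adjusted p = 0.00187). It averaged 10.89 ± 0.34 at 527.1 mg/kg, a change of -1.66 ± 0.17 or 3.15-fold lower (adjusted p = 1.21e-05). Of all probe sets, 0.0354% had a lower change at that dose. Both falls exceeded the spread between rats, and both passed under every alternative tried. At 66 mg/kg the change of Tubb2a was -0.29 ± 0.17 (adjusted p = 1), although the groups did not overlap, which was so in the lower direction for 1.91% of all probe sets. At 132 mg/kg it was -0.30 ± 0.17 (adjusted p = 0.398).

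The 1054.2 mg/kg rats had the lowest Tubb2a values of the study, at 10.29 ± 0.23, a change of -2.26 ± 0.17 from vehicle or 4.78-fold lower. This difference was known when the list was made. At this dose 2 of the 8 tubulin probe sets were past the threshold, both lower, where 3.3% of all probe sets were past it (1.44% lower), and nothing is read from that count.

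The comparisons with vehicle share the same 5 vehicle rats, and the trend holds them too. Tubb2a was chosen on its difference from these rats, so its p-values in those comparisons and in the trend are not independent of the choice. Set against the 66 mg/kg rats instead, Tubb2a was lower at 527.1 mg/kg by -1.36 ± 0.19 or 2.57-fold (limma, adjusted p = 0.00323). This difference in means uses neither vehicle rats nor rats at the highest dose. Its SE and p-value do use their spread, since all 20 arrays were fitted together. Tubb2a was the 1 tubulin probe set of 8 that passed in this fit, where 0.0966% of all probe sets passed (0.0322% lower). With only the 2 groups fitted, which leaves those rats out, Tubb2a passed too, as did Tuba4a. Over the 17 rats on vehicle to 527.1 mg/kg, the slope of Tubb2a per dose step was -0.40 ± 0.05 (adjusted p = 3.15e-05). In this trend 2 tubulin probe sets fell and 1 rose, where 2.96% of all probe sets passed (0.937% fell and 2.03% rose).

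**Figure D2:**
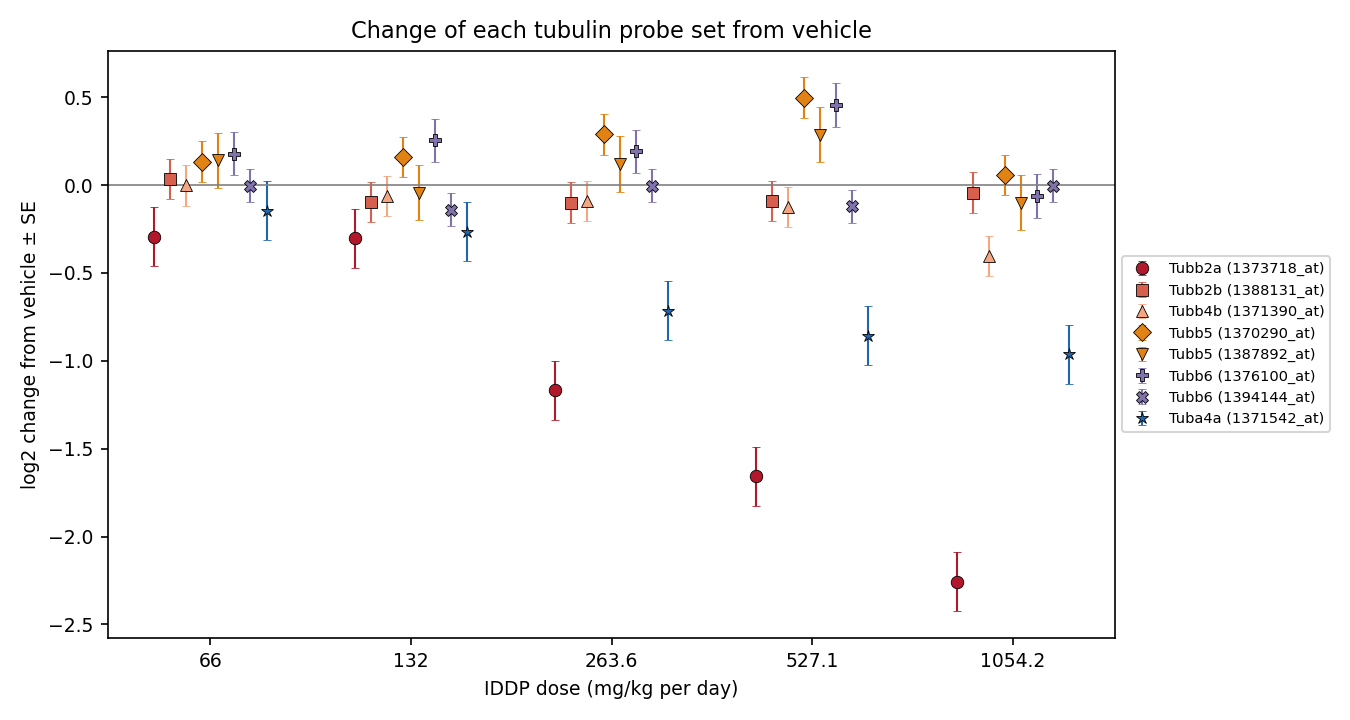
Log2 change of each tubulin probe set from vehicle by IDDP dose in mg/kg per day, as points with bars of ± 1 SE from the fit (3 rats per dose, 5 vehicle rats). Tubb2a is at -2.26 and Tuba4a at -0.96 at 1054.2 mg/kg, and the first Tubb5 and Tubb6 probe sets peak at 527.1 mg/kg with 0.50 and 0.45.

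Tuba4a encodes the alpha-tubulin whose gene, unlike most others for alpha-tubulin, does not encode the terminal tyrosine that enzymes remove from and return to the protein's tail. Its values in vehicle rats were 10.89, 10.55, 10.97, 10.72 and 11.06. They were 10.72, 10.61 and 10.75 at 66 mg/kg, 10.51, 10.49 and 10.72 at 132 mg/kg, and 10.64, 10.13 and 9.60 at 263.6 mg/kg. At 527.1 mg/kg they were 10.09, 10.04 and 9.81, and at 1054.2 mg/kg 10.13, 9.76 and 9.73. Every rat at 527.1 and 1054.2 mg/kg was below every vehicle rat, as in 4.85% and 5.81% of all probe sets. The rats at 263.6 mg/kg were spread from within the vehicle range to below all others. No pair of neighbouring doses was separated.

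Tuba4a averaged 9.98 ± 0.15 at 527.1 mg/kg and 10.84 ± 0.20 in vehicle rats (SD, n = 3 and 5), a change of -0.86 ± 0.17 or 1.81-fold lower (limma, adjusted p = 0.0103). This call was lost without 527.1 mg/kg replicate 3 (adjusted p = 0.0754). The slope over vehicle to 527.1 mg/kg was -0.22 ± 0.04 per dose step (adjusted p = 0.00159). At 263.6 mg/kg the change was -0.71 ± 0.17 and missed the threshold (adjusted p = 0.0642), but passed without 263.6 mg/kg replicate 1 (0.0100). At 527.1 against 66 mg/kg it was -0.71 ± 0.19 (adjusted p = 0.225), with no overlap between the groups, which was so in the lower direction for 6.24% of all probe sets. The difference from vehicle at 1054.2 mg/kg was -0.96 ± 0.17, or 1.95-fold lower.

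The 3 rats at 263.6 mg/kg kept one order in both genes. Replicate 1 was highest in Tubb2a (11.75) and Tuba4a (10.64), replicate 2 was between (11.52 and 10.13), and replicate 3 was lowest (10.87 and 9.60). The probe sets of Tubb4b (11.73, 11.63 and 11.33) and Tubb2b (5.72, 5.47 and 5.36) held the same order, so it was not particular to Tubb2a and Tuba4a. None of the Tubb5 and Tubb6 probe sets held it. With 3 rats this is a description.

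Tubb5 encodes the class I beta-tubulin made in most cell types. Its probe set 1370290_at read 9.10, 9.28, 9.10, 9.22 and 9.51 in vehicle rats. It read 9.47, 9.24 and 9.41 at 66 mg/kg, 9.40, 9.44 and 9.36 at 132 mg/kg and 9.31, 9.76 and 9.52 at 263.6 mg/kg. At 527.1 mg/kg it read 9.95, 9.64 and 9.62, and at 1054.2 mg/kg 9.36, 9.40 and 9.14. The 527.1 mg/kg rats stood above every vehicle rat, as in 7.04% of all probe sets, and above every 1054.2 mg/kg rat, as in 5.59%. The 1054.2 mg/kg rats lay within the vehicle range.

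This Tubb5 probe set averaged 9.74 ± 0.19 at 527.1 mg/kg and 9.24 ± 0.17 in vehicle rats (SD, n = 3 and 5), a change of 0.50 ± 0.12 or 1.41-fold higher (limma, adjusted p = 0.0325). The slope over vehicle to 527.1 mg/kg was 0.11 ± 0.03 per dose step (adjusted p = 0.0154), and without 527.1 mg/kg replicate 1 its adjusted p was 0.0582. The call at 527.1 mg/kg was lost without any 1 of the 527.1 mg/kg rats or of vehicle replicates 1 to 4 (adjusted p 0.0536 to 0.184). The other Tubb5 probe set, 1387892_at, differed in its call: its change at 527.1 mg/kg was 0.29 ± 0.16 (adjusted p = 0.45), with groups that overlapped. At 1054.2 mg/kg the 2 probe sets read 0.06 ± 0.12 and -0.10 ± 0.16 from vehicle.

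Tubb6 encodes the class V beta-tubulin. Its probe set 1376100_at read 7.26, 7.20, 7.24, 7.30 and 7.65 in vehicle rats, 7.93, 7.70 and 7.72 at 527.1 mg/kg, and 7.04, 7.33 and 7.43 at 1054.2 mg/kg. At the 3 lower doses it ranged from 7.34 to 7.77. The 527.1 mg/kg rats were above every rat on vehicle, at 263.6 mg/kg and at 1054.2 mg/kg. These separations held for 7.04%, 3.4% and 5.59% of all probe sets, in that order. The change at 527.1 mg/kg, 0.45 ± 0.12, missed the threshold (limma, adjusted p = 0.0683), as did the slope over vehicle to 527.1 mg/kg, 0.10 ± 0.03 per dose step (adjusted p = 0.0568). Without vehicle replicate 5, the highest vehicle rat, both passed (0.0239 and 0.0236). The other Tubb6 probe set, 1394144_at, was dim, between 4.40 and 4.83 in every rat, and its change at 527.1 mg/kg was -0.12 ± 0.09 (adjusted p = 0.638). Its 263.6 mg/kg rats lay above those at 132 mg/kg by 0.14, and its 527.1 mg/kg rats differed from those at 263.6 mg/kg by -0.12, both without overlap, which was so for 5.41% and 4.81% of all probe sets in those directions.

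Groups at 527.1 mg/kg and on vehicle did not overlap for Tubb2a and Tuba4a in the lower direction, where 4.85% of all probe sets were so placed, and for the brighter Tubb6 and 1 Tubb5 probe set in the higher direction, where 7.04% were. Genes of mitosis were high at 527.1 mg/kg, as was 1 Tubb5 probe set, but not at that dose alone. Of 20 listed mitotic genes, 19 were measured and 16 rose at 527.1 mg/kg, with a median change of 1.13 against -0.01 over all probe sets. At 1054.2 mg/kg 2 were past the threshold, with a median of 0.62. Of all probe sets, 1.68% passed in either direction at 527.1 mg/kg and 3.3% at 1054.2 mg/kg. At 66, 132 and 263.6 mg/kg the medians of this list were 0.44, 0.55 and 0.81. There 0, 0 and 4 of the 19 passed, against 0.00644%, 0.0677% and 0.428% of all probe sets, and neither Tubb5 probe set did. Mki67, a protein of proliferating nuclei, changed by 2.13 ± 0.35 at 527.1 mg/kg (adjusted p = 0.00286). Ccnb2, a cyclin of mitosis, changed by 2.02 ± 0.30 (adjusted p = 0.00158), and Cdk1, the kinase that cyclin B activates, by 1.84 ± 0.38 (adjusted p = 0.0145). The mean of the list per rat, relative to the vehicle mean, was 0.996 to 1.55 at 527.1 mg/kg, -0.11 to 0.996 at 1054.2 mg/kg and -0.17 to 0.37 in vehicle rats. The part of dividing cells in the Tubb5 and Tubb6 values was not tested.

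Tubb4b encodes the class IVb beta-tubulin, found in many tissues and in cilia. Its vehicle rats read 11.68, 11.49, 11.56, 11.79 and 11.76, and the rats at 66 to 527.1 mg/kg ranged from 11.33 to 11.76. At 1054.2 mg/kg it read 11.11, 11.26 and 11.38, below every vehicle rat, a difference of -0.40 ± 0.12. Such a separation downwards held for 5.81% of all probe sets at that dose. The change at 527.1 mg/kg was -0.12 ± 0.12 (limma, adjusted p = 0.711, 95% interval -0.36 to 0.12).

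Tubb2b encodes a class II beta-tubulin like Tubb2a. Its probe set was dim, below the median of all probe sets, and ranged from 5.36 to 5.83 over all 20 rats. Its change at 527.1 mg/kg was -0.09 ± 0.12 (limma, adjusted p = 0.809, 95% interval -0.33 to 0.15), and its mean changes at the 5 doses lay between -0.10 and 0.03. Tubulin genes are close in sequence, and the probe sequences were not used here, so how far a probe set also reads a relative such as Tubb2al1 was not checked.

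**Figure D3:**
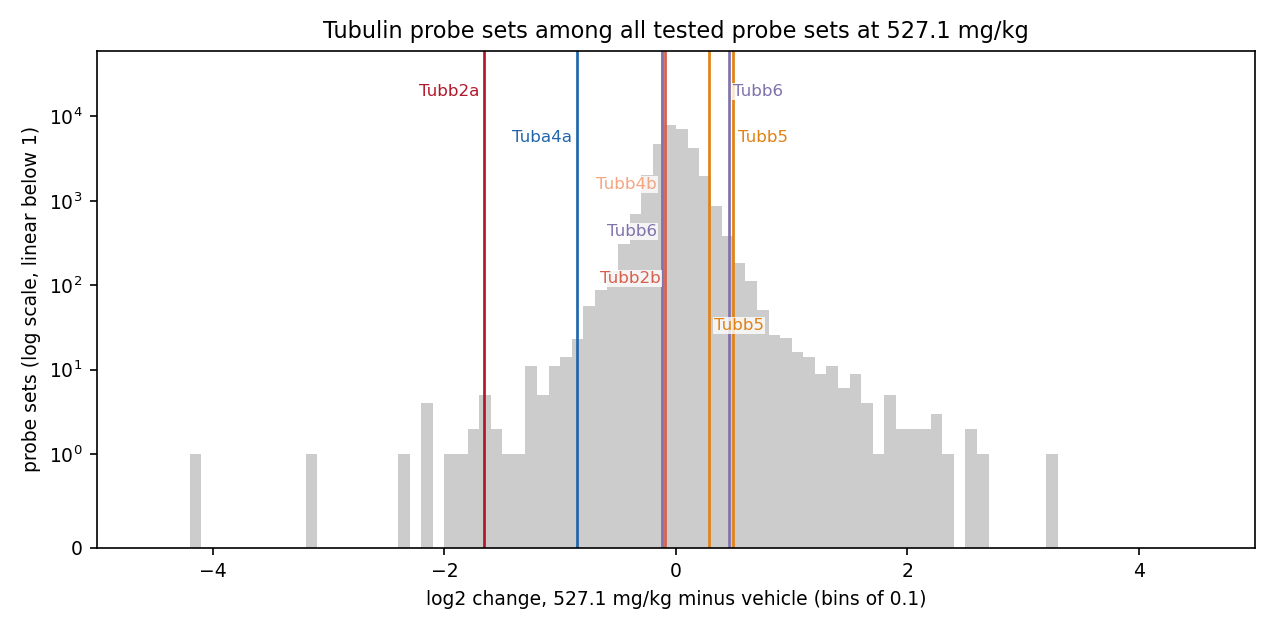
Histogram of the log2 change at 527.1 mg/kg minus vehicle over all 31042 tested probe sets, in bins of 0.1, with the count on a log scale (linear below 1) and a vertical line for each of the 8 tubulin probe sets. Tubb2a (-1.66) and Tuba4a (-0.86) lie in the lower tail, Tubb5 (0.50) and Tubb6 (0.45) in the upper shoulder, and the others nearer 0.

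The change of Tubb2a was also set against that of each relative, as Tubb2a minus the other tubulin in each rat, with each of the other 5 measured genes read from its brightest probe set. At 527.1 mg/kg against vehicle, the change of Tubb2a minus that of the other gene was -2.11 for Tubb6, -1.94 for Tubb5, -1.57 for Tubb2b, -1.53 for Tubb4b and -0.80 for Tuba4a. Since Tubb2a was chosen for its fall from these vehicle rats, these differences are a description with no test. The same differences at 527.1 against 66 mg/kg, which use neither vehicle nor 1054.2 mg/kg rats, were -1.64 for Tubb6, -1.51 for Tubb5, -1.24 for Tubb2b, -1.24 for Tubb4b and -0.65 for Tuba4a. The 3 rats at 527.1 mg/kg and the 3 at 66 mg/kg did not overlap in any of the 5. All 5 differences hold the same Tubb2a values, so they are not separate observations. The Tubb2a values taken by themselves did not overlap between these groups either, and nor did those of Tuba4a. A separation in the lower direction held for 6.24% of all probe sets. Tubb5 1370290_at was separated in the higher direction, as in 7.2%. Each two-sided exact permutation p was 0.1, the smallest that 20 splits of 6 rats allow, so this design cannot reach 0.05, and the adjusted p over the 5 was also 0.1. In Tubb2a minus Tuba4a the rats ranged from 0.75 to 1.21 at 527.1 mg/kg and from 1.55 to 1.57 at 66 mg/kg.

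The genes whose dose profiles were closest to that of Tubb2a were ranked by the root mean square difference between their 5 log2 changes from vehicle, over 9663 genes with a probe set above the median brightness. The closest were Lox, an enzyme that cross-links collagen (0.31), Egr1, an immediate early transcription factor (0.37), and Stac3, an adaptor known from muscle excitation (0.38). Avpr1a, the vasopressin receptor of hepatocytes (0.45), Slc34a2, a phosphate transporter (0.45), and Oat, ornithine aminotransferase (0.47), followed. Tuba4a, at 0.71, would have ranked 32. All 5 comparisons share the vehicle rats, so this likeness is a description.

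The mean changes of these 6 genes along the doses are described beside those of Tubb2a, and no gene was tested against it. Neither Tubb2a nor any of the 6 passed the threshold at 66 mg/kg. At 66 mg/kg their changes were -0.84 for Lox, 0.04 for Egr1, -0.56 for Stac3, -0.33 for Avpr1a, 0.12 for Slc34a2 and -0.38 for Oat, against -0.29 for Tubb2a. Egr1 at 527.1 mg/kg had changed by -2.13 and Lox by -1.60, either side of the -1.66 of Tubb2a, and the other 4 lay between -1.27 and -1.20. Lox, Stac3 and Slc34a2 missed the threshold at that dose (limma, adjusted p = 0.0828, 0.279 and 0.0564), and Egr1, Avpr1a and Oat passed. All 6 were picked on these changes, so nothing is read from that. Lox has 2 probe sets, and the values of the other are not given. At 1054.2 mg/kg Stac3 was at -2.87, beyond Tubb2a, and Avpr1a and Oat were at -1.49 and -1.46. Vehicle rats varied more in Lox (SD 0.98) and Stac3 (SD 0.61) than in Tubb2a (SD 0.14) or Avpr1a (SD 0.14).

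**Figure D4:**
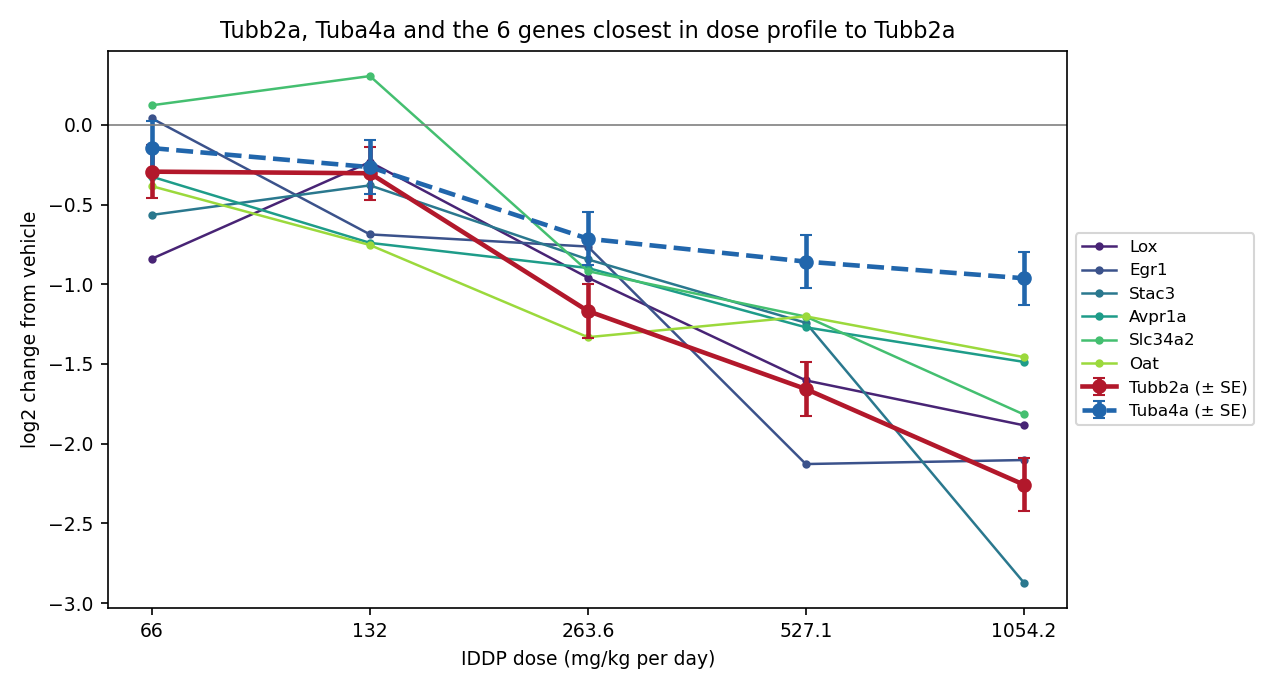
Log2 change from vehicle of Tubb2a and Tuba4a (thick lines, ± 1 SE) and of the 6 genes closest to Tubb2a (thin lines) by IDDP dose in mg/kg per day. All 8 lines end below 0, from -0.96 for Tuba4a to -2.87 for Stac3 at 1054.2 mg/kg.

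Markers of other liver cells were read at 527.1 and 1054.2 mg/kg, where Tubb2a and Tuba4a were low, and by their medians at the lower doses. Of 14 measured stellate cell and fibroblast genes, 0 passed in limma at 527.1 mg/kg (7 lower at an unadjusted p under 0.05, which 13.6% of all probe sets had in either direction, median change -0.37) and 7 were lower at 1054.2 mg/kg (median -0.51). The largest change of that list was in Lox, at -1.60 ± 0.45 at 527.1 mg/kg (adjusted p = 0.0828) and -1.88 ± 0.45 at 1054.2 mg/kg (adjusted p = 0.0244). Of 11 measured Kupffer cell and macrophage genes, 0 passed at 527.1 mg/kg (8 lower unadjusted, median -0.33) and 6 were lower at 1054.2 mg/kg (median -0.54). Its largest change was in C1qb, a complement subunit, at -0.61 ± 0.18 at 527.1 mg/kg (adjusted p = 0.0929). Of 11 endothelial genes 1 was lower at 527.1 mg/kg, Gpr182, an endothelial receptor, at -0.50 (adjusted p = 0.0286), and 2 at 1054.2 mg/kg. Of all probe sets, 0.483% were lower past the threshold at 527.1 mg/kg and 1.44% at 1054.2 mg/kg. The stellate list mean per rat was -0.58 to -0.32 at 527.1 mg/kg, -0.57 to -0.46 at 1054.2 mg/kg and -0.21 to 0.08 in vehicle rats. The Kupffer list mean was -0.52 to -0.19, -0.55 to -0.40 and -0.17 to 0.18 in the same groups. At 66 and 132 mg/kg, where 0 of the 8 tubulin probe sets passed, the stellate medians were -0.20 and -0.23. The Kupffer medians there were -0.20 and -0.58, and the endothelial medians -0.32 and -0.25. At 263.6 mg/kg the same lists had medians of -0.55, -0.28 and -0.30, in that order. Over all probe sets the medians at these doses lay between -0.02 and 0.01. The part of these cells in the tubulin values was not tested. In whole liver, fewer cells of a type and less RNA per cell cannot be told apart.

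The machinery that makes, folds, degrades and modifies tubulin was read from lists of its genes. At 527.1 mg/kg, 0 of 6 other measured tubulin genes passed, 0 of 14 chaperonin and prefoldin genes, which fold tubulin, 0 of 7 folding cofactors, 0 of 12 genes of tubulin mRNA decay and 0 of 14 tubulin-modifying enzymes (limma). At an unadjusted p under 0.05, 2, 1, 2, 2 and 0 genes of these lists were higher, in the same order, and 0 lower, where 13.6% of all probe sets had such a p in either direction. Their medians lay between -0.03 and 0.13. The largest change of the other tubulins was 0.31 ± 0.12 for Tube1, the epsilon-tubulin of centrioles (adjusted p = 0.218), and that of the chaperonin list was 0.28 ± 0.11 for Pdcl3, a phosducin-like chaperone partner (adjusted p = 0.254). Tbcel, a relative of tubulin cofactor E, was at 0.34 ± 0.12 (adjusted p = 0.17) and was past the threshold at 1054.2 mg/kg (0.48 ± 0.12, adjusted p = 0.028). Cnot2, of the CCR4-NOT deadenylase, was at 0.29 (adjusted p = 0.454), and Ttll1, a polyglutamylase, at -0.22 (adjusted p = 0.448).

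Among 10 measured genes that destabilise microtubules, 2 rose and 1 fell at 527.1 mg/kg. Of all probe sets, 1.19% were higher and 0.483% lower past the threshold. Stmn1, stathmin, which binds free tubulin dimers, rose by 1.39 ± 0.25 (limma, adjusted p = 0.00502), and at 1054.2 mg/kg was at 0.46 ± 0.25 (adjusted p = 0.402). Kif2c, a kinesin that takes microtubule ends apart in mitosis, rose by 0.90 ± 0.22 (adjusted p = 0.0434). Stmn3, another stathmin, fell by 0.57 ± 0.12 (adjusted p = 0.0149) and was at -0.68 ± 0.12 at 1054.2 mg/kg (adjusted p = 0.00212). Stmn1 and Kif2c are also made by dividing cells, and their levels at 527.1 mg/kg stood beside the mitotic list values above.

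Of 29 measured motor genes, 3 rose at 527.1 mg/kg and 0 fell, where 1.19% of all probe sets passed higher and 0.483% lower. Dctn1, a dynactin subunit, rose by 0.50 ± 0.10 (limma, adjusted p = 0.0103), Nde1, a dynein regulator, by 0.49 ± 0.11 (adjusted p = 0.0202), and Klc4, a kinesin light chain, by 0.37 ± 0.09 (adjusted p = 0.0461). Of 23 microtubule-associated and plus-end proteins 0 passed (3 unadjusted, median 0.04), with Ckap5, a microtubule polymerase, at 0.46 ± 0.18 (adjusted p = 0.227). Of 11 genes of the gamma-tubulin complex, which nucleates microtubules, 0 passed (1 unadjusted, median 0.14), with Akap9 at 0.24 (adjusted p = 0.574). The other cytoskeletal filaments had 2 lower genes of 17, Actg1, gamma-actin, at -0.77 ± 0.16 (adjusted p = 0.0135) and Tpm4, a tropomyosin, at -0.52 ± 0.11 (adjusted p = 0.0214). At 1054.2 mg/kg that list had 4 lower and 1 higher, with a median of -0.18, where 3.3% of all probe sets passed (1.44% lower).

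**Figure D5:**
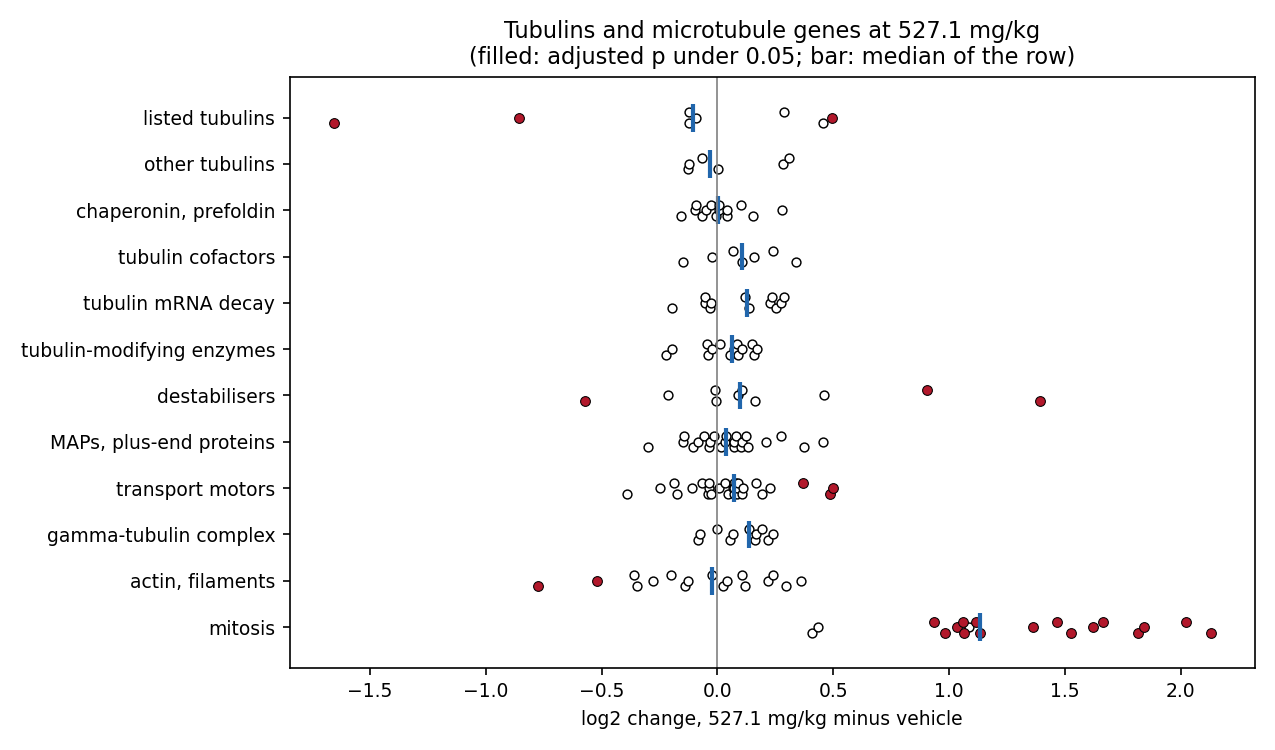
Log2 change at 527.1 mg/kg minus vehicle of each listed tubulin probe set (top row) and of each gene in 11 microtubule and cytoskeleton lists, 1 row per list, with filled points past an adjusted p of 0.05 and a bar at the row's median. Tubb2a at -1.66 is the point farthest to the left, and 16 of the 19 mitotic genes are filled on the right.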

How the data were processed

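The deposited log2 intensities came from RMA, per the submitters' processing notes, and its version is not given in the sources used. There were 31099 probe sets on 20 arrays, with 0 columns of no sample, and the number of arrays limits the precision. The 57 control probe sets were left out, and no filter on low values was used. Symbols came from the platform annotation: 20826 probe sets had 1 symbol, 436 several and 9780 are unnamed here.

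Group means were fitted to the 20 arrays together in limma 3.58.1 (R 4.3.3; 14 residual and 5.75 prior degrees of freedom), two-sided, with Benjamini-Hochberg adjustment over 31042 probe sets and a threshold of 0.05. The trend used 17 arrays and dose ranks 0 to 4. A gene in a list was read from its brightest probe set. The p-values measure spread between rats. The permutation test was planned at 527.1 mg/kg against vehicle over 8 other genes. It covers the 5 with a probe set of their own and is given against 66 mg/kg, a comparison added after seeing the data, since Tubb2a was chosen on its difference from vehicle. The code was tested on simulated data.

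The members and the 19 lists were chosen with earlier results of these data known. All members are named. From each list up to 3 genes past the threshold at 527.1 mg/kg with the largest change are named, or the 1 with the largest change where none passed, and 6 genes by likeness. Examples of cell markers, such as Alb, were chosen after their values were seen. Alternatives were a filter on dim probe sets (mean under log2 6.37), centred medians, quantile normalization again, a replicate block, an RNA quality covariate, only the 2 groups fitted, a slope on mg/kg, and each array left out. An added one, chosen after seeing the data, left out the 2 arrays of highest 3' minus 5' difference.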

Additional observations from a re-analysis of the deposited data

Results flagged for a closer look

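The Tubb6 probe set 1376100_at had 1 vehicle rat far from the others. Replicate 5 read 7.65 and the other 4 vehicle rats 7.20 to 7.30, so its gap to the nearest rat was 0.782 of the range of the group. The change of Tubb6 at 527.1 mg/kg was 0.53 without that rat (limma, adjusted p = 0.0239) and 0.45 with it (0.0683). This was 1 of 8 tubulin probe sets examined in the vehicle group. Chance alone sets a rat apart in this way in some groups, and how often was not computed here.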

How the results depend on the processing

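Tubb2a kept its call under every alternative run: its adjusted p was 0.000939 to 0.0144 at 263.6 mg/kg, 7.02e-06 to 0.000352 at 527.1 mg/kg, 0.00119 to 0.037 at 527.1 against 66 mg/kg and 5.1e-06 to 0.000495 in the trend. Those against vehicle and in the trend reuse the vehicle rats on which the gene was chosen. Of 882 values of tubulin probe sets under the alternatives, 764 had a test, and of these 743 stayed on their side of the threshold, 12 newly passed and 9 no longer passed. The sign changed in 43 of the 882, none of them a value past the threshold and each under 0.15 in size, and 118 carry no test, those at 1054.2 mg/kg. The number of tubulin probe sets past the threshold was 2 at 263.6 mg/kg with dim probe sets left out (1 in the reported fit) and 2 at 527.1 against 66 mg/kg with only the 2 groups fitted (1 in the reported fit), in both with Tuba4a added. Tubb6 1376100_at was added at 527.1 mg/kg under the replicate block and the RNA quality covariate (4 each, 3 in the reported fit), and in the trend under that covariate and with dim probe sets left out (4 each, 3 in the reported fit).

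Counts over all probe sets moved more. With dim probe sets left out, 46 passed at 132 mg/kg (21 in the reported fit). With medians centred, 75 passed at 263.6 mg/kg (133 in the reported fit). Quantile normalization again gave 50 at 132 and 221 at 263.6 mg/kg. The replicate numbers do not pair rats across groups (correlations of same-numbered rats -0.27 to 0.11), and the replicate block gave 78 at 263.6, 283 at 527.1, 614 at 1054.2 mg/kg and 488 in the trend. The RNA quality covariate gave 839 at 527.1 mg/kg and 1471 in the trend. Only the 2 groups fitted gave 11 at 66, 826 at 527.1 and 88 at 527.1 against 66 mg/kg. The slope on mg/kg gave 566. Without the 2 arrays of highest 3' minus 5' difference, 11 passed at 132, 56 at 263.6 and 48 at 527.1 against 66 mg/kg. The cause was not tested for any of these.

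With 1 rat left out, the counts were 0 to 3 at 66, 6 to 1482 at 132, 38 to 193 at 263.6, 212 to 509 at 527.1, 405 to 1069 at 1054.2 mg/kg, 5 to 21 at 527.1 against 66 mg/kg and 572 to 1320 in the trend. The extremes came without 132 mg/kg replicate 3 (1482) and replicate 1 (6), 263.6 mg/kg replicate 2 (38), 527.1 mg/kg replicate 3 (212), 1054.2 mg/kg replicate 3 (405), 66 mg/kg replicate 3 (5), 66 mg/kg replicate 1 (0), vehicle replicates 3 and 4 (572 each) and 132 mg/kg replicate 2 (1320). Tubulin probe sets past the threshold were 1 to 2 at 263.6, 1 to 4 at 527.1 mg/kg (1 without 527.1 mg/kg replicate 3, 4 without vehicle replicate 5) and 2 to 4 in the trend. The change of Tubb2a minus that of the other gene was -1.66 to -1.45 for Tubb2b, -1.73 to -1.39 for Tubb4b, -2.24 to -1.77 for Tubb5, -2.33 to -1.99 for Tubb6 and -0.95 to -0.72 for Tuba4a. With 66 mg/kg rats in place of vehicle rats it was -1.24, -1.24, -1.51, -1.64 and -0.65, in the same order, where 6 rats cannot give an exact p below 0.1. Signal limits what the dim Tubb2b probe set and the dimmer Tubb6 probe set can show, since both lay below the median brightness of all probe sets.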

Other observations

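The probe set annotated to Tuba1a, Tuba1b and Tuba1c together, which names no gene by itself, read 11.46 to 11.67 at 527.1 mg/kg, 11.04 to 11.41 at 1054.2 mg/kg and 11.45 to 11.89 in vehicle rats. Its change at 527.1 mg/kg was -0.15 ± 0.14 (limma, adjusted p = 0.723), and its difference at 1054.2 mg/kg was -0.52 ± 0.14. A pair of probe sets annotated to both Tubb4b and C7 differed by -0.25 ± 0.28 and -0.40 ± 0.41 at 527.1 mg/kg (adjusted p = 0.782 and 0.741). Of 8 measured markers of bile duct cells 1 rose at 527.1 mg/kg, Epcam, an epithelial adhesion protein, by 0.55 (adjusted p = 0.0237), and the list median was 0.06. At that dose 1.19% of all probe sets were higher past the threshold. Of 12 lymphocyte, 7 neutrophil and 6 erythroid genes, 1 passed in limma at 263.6 mg/kg, a neutrophil gene that was higher. There 0.428% of all probe sets passed. The neutrophil list mean per rat, relative to the vehicle mean, was 0.17 to 0.60 at 263.6 mg/kg and -0.08 to 0.10 in vehicle rats. At 527.1 and 1054.2 mg/kg 0 genes of these lists passed. In each list 1 gene had an unadjusted p under 0.05 at 527.1 mg/kg, as had 13.6% of all probe sets. The largest changes of these lists at that dose were -0.32 for Ptprc, the leukocyte phosphatase CD45 (adjusted p = 0.629), -0.32 for S100a8, a calcium-binding protein of neutrophils (adjusted p = 0.746), and -0.77 for Tfrc, the transferrin receptor (adjusted p = 0.169).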
